A study of Mus musculus with 6 samples.

Results

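The collagen chain genes of the mouse uterus were compared between mice with stabilized β-catenin and their controls. A gene was taken as a collagen chain gene when its symbol in the array annotation has the form Col, a number, a, and a number, on a probe set that carries only that symbol, and each gene was read by its brightest probe set over the 6 arrays. This gave 42 of the 18193 genes measured, of which 11 code for fibrillar chains, 6 for chains of basement membrane collagen IV and 25 for chains of other types. Intensities are on a log2 scale throughout, a log2 fold change is the mutant mean minus the control mean with its standard error (SE), and a gene is called where limma's p, adjusted by Benjamini-Hochberg over all 18193 genes, is under 0.05.

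Total RNA of whole uteri of intact female mice at 4 weeks of age was hybridized to Affymetrix arrays, 3 for control and 3 for mutant mice. The mutant genotype is Pgr cre/+ Ctnnb1f(ex3)/+. In it, Cre made from the progesterone receptor gene (Pgr) removes exon 3 of Ctnnb1 in cells that have expressed Pgr, and the shortened β-catenin escapes degradation, so that uterine cells which never expressed Pgr keep the intact allele. The controls are called wild type in the sample labels, while the methods give them as Pgr cre/+ and Ctnnb1f(ex3)/+ mice. The methods give 1 month as the age and state that RNA of 3 mice per genotype was pooled, which leaves unsettled whether 2 arrays of a group come from different animals. The p-values therefore reflect the spread of these arrays alone, which may be technical in part. The controls did not read alike, as cell cycle genes had a mean log2 intensity of 4.13 on control array 2 against 6.77 and 6.95 on arrays 1 and 3, and adipocyte markers 3.93 on control array 3 against 5.14 and 5.48 on arrays 1 and 2. The mice of this line are studied because they develop adenomyosis as they age. In adenomyosis, glands and stroma of the endometrium grow into the muscle of the uterus. The paper states that mutant mice older than those on these arrays do not yet show it. The values below are therefore from uteri sampled before its reported onset, and adenomyotic tissue was not measured.

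Collagens are matrix proteins of 3 chains wound into a triple helix. Fibrillar types (I, II, III, V, XI, XXIV and XXVII) build the fibers that carry tension, type IV forms the sheet of the basement membrane under epithelia and around vessels and muscle cells, and the remaining types decorate fibers, form beaded filaments, anchor epithelia or sit in the cell membrane. In the uterus, types I and III make up much of the fibrous matrix of stroma and muscle layer.

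Deposited intensities ran from 1.99 to 10886.56, and the medians of the arrays lay between 7.23 and 7.42. Over probe sets, which are no independent units, Pearson's r was 0.992 to 0.996 for pairs of control arrays, 0.994 for pairs of mutant arrays and 0.981 to 0.990 for a control with a mutant array. No detection calls were used. An intensity of 16, which is 4 on the log2 scale, serves below only as a mark for low signals, and 62.3 to 62.6% of all probe sets lay under it. Ctnnb1 itself, the targeted gene, had a log2 fold change of 0.33 (SE 0.09, limma adjusted p = 0.0498). That call ended without control array 1, 2 or 3 or mutant array 2 or 3 (adjusted p of 0.106 to 0.155), and where its probes lie relative to exon 3 is not stated in what was used here, so it is no check of the deletion. Leaving out any 1 array lowered the calls over all genes, from 1021 higher and 1157 lower to 480 and 372 without control array 1. A call lost in this way, here or below, therefore need not mark an unusual array. Smooth muscle markers, which a uterus must hold, summed to intensities of 11330 to 13161 on control and 11321 to 12945 on mutant arrays.

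Of the 42 collagen genes, 11 rose in the mutant uterus, 1 fell and 30 were not called. Those that rose were Col7a1, Col13a1, Col8a1, Col11a1, Col26a1, Col23a1, Col18a1, Col12a1, Col24a1, Col27a1 and Col14a1, by 1.33-fold to 3.25-fold. Col6a4 fell to 0.332 of its control level. The chains of collagen I and III were not among them, nor was any of the 6 collagen IV chains. Over all genes, 5.61% were called higher and 6.36% lower, and the median log2 fold change was 0.06 over the collagens and -0.01 over all genes. Every mutant array lay above every control array for 14 collagen genes and below for 4, against 14.9% and 17.4% of all genes. At an unadjusted p under 0.05, limma put 12% of all genes higher and 14.4% lower, and the methods' t-test 10.6% and 12.2%, or 0.577% and 0.214% after Benjamini-Hochberg adjustment. The adjusted t-test called only Col18a1 and Col24a1 of the 12 (adjusted p of 0.0509 to 0.142 for the others), and limma with a floor of 16 only Col13a1 and Col18a1 (0.052 to 1), so Col7a1 and Col6a4 kept their calls under neither. With that floor, limma called 283 of all genes higher and 243 lower. As the arrays read whole uterus, fewer cells of a type and less RNA per cell cannot be told apart for any gene below.

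The level of signal differed between the called genes. All 6 arrays read 16 or more for 25 collagen genes, of which 7 were called. Another 12 lay below 16 on every array, and of these only Col24a1 was called. The other 5 crossed that mark, and Col11a1, Col8a1, Col23a1 and Col26a1 among them were called. Mutant array 1 had the value nearest to the control mean in 9 of the 12 called collagens, as in 62.7% of all called genes. Control array 2 was the lowest control for 24 of the 42 collagens, against 38% of all genes. Without both arrays, 10 collagens were called higher and 3 lower, against 759 and 773 of all genes. Col14a1 was then not called (adjusted p = 0.125), and Col15a1 (-1.27, adjusted p = 0.00411) and Col6a3 (-0.62, adjusted p = 0.0414) were called lower.

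**Figure D1:**
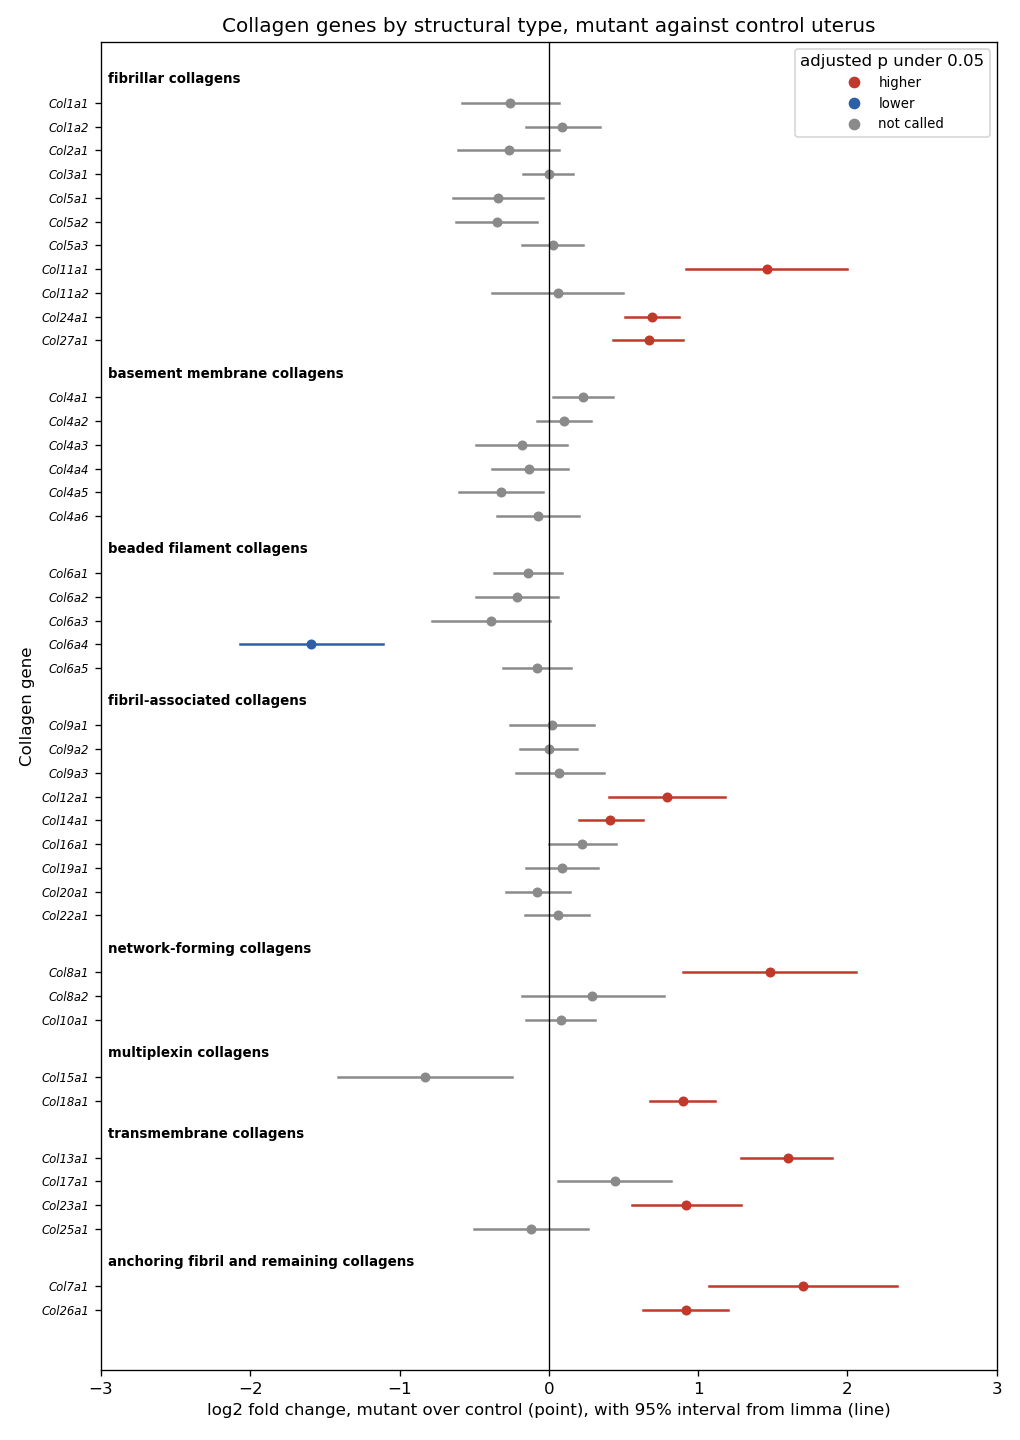
Log2 fold change of each of the 42 collagen genes (horizontal axis, mutant over control, 3 arrays each) with its 95% interval from limma, grouped by structural type. Red points are called higher, the blue point lower and grey points not called. The red points lie between 0.41 for Col14a1 and 1.70 for Col7a1, the blue point of Col6a4 lies at -1.59, and the chains of collagen I, III and IV lie between -0.32 and 0.23.

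β-catenin acts on genes through TCF/LEF proteins, whose best known binding core reads CTTTGAT or CTTTGAA. The sequence just before the annotated start is shown for Col7a1 and Col13a1, which had the greatest log2 fold changes among the collagens, and for Col6a4, the only chain called lower. These are the 250 bases before the start, 5′ to 3′ on the gene's strand, from RefSeq on GRCm38.p6, at chr9:108953336-108953585 on the plus strand for Col7a1, chr10:61979109-61979358 on the minus strand for Col13a1 and chr9:106096692-106096941 on the minus strand for Col6a4. Capitals mark a TCF/LEF core, here read on the opposite strand.
Col7a1: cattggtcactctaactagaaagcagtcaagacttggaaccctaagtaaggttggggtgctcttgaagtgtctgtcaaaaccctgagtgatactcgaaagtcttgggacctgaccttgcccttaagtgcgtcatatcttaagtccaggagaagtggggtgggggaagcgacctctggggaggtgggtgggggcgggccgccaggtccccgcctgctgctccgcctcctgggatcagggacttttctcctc
Col13a1: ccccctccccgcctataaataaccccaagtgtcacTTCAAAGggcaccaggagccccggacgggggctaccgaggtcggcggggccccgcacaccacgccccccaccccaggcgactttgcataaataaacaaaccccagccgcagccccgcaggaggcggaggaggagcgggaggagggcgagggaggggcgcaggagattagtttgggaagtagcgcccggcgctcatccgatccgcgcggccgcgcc
Col6a4: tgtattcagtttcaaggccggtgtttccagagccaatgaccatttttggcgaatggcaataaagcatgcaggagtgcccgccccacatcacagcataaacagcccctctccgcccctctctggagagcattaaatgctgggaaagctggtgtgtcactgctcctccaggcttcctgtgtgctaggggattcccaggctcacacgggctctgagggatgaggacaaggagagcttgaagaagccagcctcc
The core in the Col13a1 window starts 215 bases before the annotated start, and that window also holds TATAAA, the letters of a TATA box, 237 bases before it. Neither core was found in the windows of Col7a1 and Col6a4.

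RefSeq windows were given for 33 of the 42 collagen genes, 36 windows in all, and for 9 of the 12 called genes (not Col12a1, Col14a1 and Col26a1). On either strand, CTTTGAT occurred in 1 collagen window, that of Col9a2, against 3.21% of the 32851 windows of all genes. CTTTGAA occurred in the windows of Col13a1, Col15a1, Col6a2 and Col9a1, against 4.46% of all windows. At least 1 of the cores was found in 5 of 36 collagen windows (13.9%) and in 7.48% of all windows, and of those genes only Col13a1 was called. TATAAA was found in 13.9% of collagen windows and 12.4% of all. The median GC content was 59% for the collagen windows and 52.4% for all. A match of letters is a description and no sign of binding, and these windows leave out enhancers and more distant sequence.

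Among the 11 fibrillar chains, 3 rose (Col11a1, Col24a1 and Col27a1), 0 fell and 8 were not called by limma, with a median log2 fold change of 0.03. At an unadjusted p under 0.05, 3 were higher and 2 lower, against the 12% and 14.4% of all genes, and the methods' t-test put 1 higher and 0 lower after Benjamini-Hochberg adjustment. The chains that rose belong to minor fibrillar collagens. The chains of the major fibers of the uterus were not called. Col3a1, the single chain of collagen III, read 12.92, 12.96 and 12.90 on control arrays 1 to 3 and 12.92, 12.93 and 12.93 on mutant arrays 1 to 3. The groups overlap, and the 95% interval of its log2 fold change ran from -0.17 to 0.16 (adjusted p = 0.979). This probe set lies near the top of the intensity scale, and the other probe set of Col3a1 gave -0.29 (adjusted p over all probe sets = 0.245).

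Collagen I is built of 2 Col1a1 chains and 1 Col1a2 chain. Col1a1 gave 8.94, 8.54 and 9.01 in the controls and 8.70, 8.42 and 8.60 in the mutants (log2 fold change -0.26, SE 0.14, adjusted p = 0.306). Col1a2 gave 12.72, 12.48 and 12.84 against 12.77, 12.73 and 12.81 (0.09, SE 0.11, adjusted p = 0.658). Both overlap between the groups, with control array 2 as the lowest control. Within each array, Col1a1 relative to Col1a2 was lower on every mutant array, by a mean of -0.35 on the log2 scale (SD 0.08 in controls and 0.12 in mutants). The other probe set of Col1a1 gave a log2 fold change of 0.00, and the other ones of Col1a2 gave -0.00 and, for the dimmest, -0.23. The lower ratio is therefore that of the brightest probe set of each chain, and the one of Col1a2 lies near the top of the intensity scale.

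Collagen V sets the diameter of collagen I fibers. Col5a1 read 9.54, 9.37 and 9.76 in controls and 9.31, 9.04 and 9.31 in mutants, and Col5a2 read 10.37, 10.08 and 10.39 against 10.03, 9.78 and 9.97. In both chains every mutant array lay below every control array, yet neither passed the test, with log2 fold changes of -0.34 (SE 0.13, adjusted p = 0.136) and -0.35 (SE 0.12, adjusted p = 0.0987). The ratio of Col5a1 to Col5a2 moved by 0.01. The dimmest of 3 Col5a1 probe sets was called lower over all probe sets (-0.47, adjusted p = 0.0401). Another Col5a1 probe set gave -0.14 and the other one of Col5a2 -0.18, both overlapping between the groups. Col5a3 showed a log2 fold change of 0.03 (adjusted p = 0.888).

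Col11a1 codes for the α1 chain of collagen XI, which starts thin fibers and is best known from cartilage. It read 3.62, 3.12 and 3.48 in the controls and 4.35, 4.98 and 5.25 in the mutants. All controls lay below the mark of 16 and all mutants above it, with mutant array 1 nearest the controls, and with a floor of 16 its log2 fold change was 0.86. The log2 fold change was 1.46 (SE 0.23, 2.75-fold, adjusted p = 0.00854), and the other probe set gave 1.82. Its partner Col11a2 stayed between 1.78 and 2.45 on all arrays, with a log2 fold change of 0.06 (adjusted p = 0.879), and Col2a1, the main fibrillar chain of cartilage, stayed between 2.44 and 3.12 (-0.27, adjusted p = 0.296). Of 10 cartilage markers limma called 0, and the methods' t-test called 0 after adjustment. At an unadjusted p under 0.05, limma put 2 higher, Hapln1 (0.45, adjusted p = 0.0625) and Sox9 (0.35, adjusted p = 0.0984), and 1 lower, Sox5 (-0.60, adjusted p = 0.13). On every array 8 of the 10 were below 16, Acan, Comp, Matn1, Cnmd and Hapln1 included. The list summed to 86 to 89 on control and 82 to 92 on mutant arrays.

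Col27a1 and Col24a1 code for fibrillar chains with shorter, interrupted helices. Col27a1 read 5.72, 5.68 and 5.92 in controls and 6.32, 6.48 and 6.52 in mutants. The groups stood clear of each other, with a log2 fold change of 0.67 (SE 0.10, 1.59-fold, adjusted p = 0.00708) and 0.91 on the other probe set. Col24a1 read 1.58, 1.58 and 1.49 against 2.26, 2.20 and 2.27 on its only probe set. The values are tight (0.69, SE 0.08, adjusted p = 0.00196) but lie near the lowest signals on the arrays, and the gene was not tested where the lowest 40% of genes were left out.

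The 6 chains of collagen IV assemble in the combinations Col4a1 with Col4a2, Col4a3 with Col4a4 and Col4a5, and Col4a5 with Col4a6. By limma 0 were called in either direction, with 1 higher and 1 lower at an unadjusted p under 0.05, and the methods' t-test put 0 past the threshold after adjustment and 1 higher before it. A count of 1 in 6 is near the share of all genes on either test. The median log2 fold change was -0.10. Col4a1 and Col4a2, the chains present in nearly all basement membranes, start from a shared stretch on opposite strands. The 20 bases between their annotated starts, at chr8:11312806-11312825 on GRCm38.p6, are shown because 1 stretch precedes both genes.
between Col4a2 and Col4a1: gtgcgcgggcggcgtctcca

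Col4a1 read 10.04, 9.80 and 9.94 in the controls and 10.14, 10.19 and 10.15 in the mutants. Col4a2 read 9.07, 8.92 and 8.99 against 9.08, 9.11 and 9.09. Both chains were above the controls on every mutant array, by small amounts that did not pass the test (0.23, SE 0.09, adjusted p = 0.139, and 0.10, SE 0.08, adjusted p = 0.478). Their ratio moved by 0.13. The other probe set of Col4a1 gave -0.06 and overlapped between the groups (adjusted p over all probe sets = 0.819).

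The remaining collagen IV chains had log2 fold changes below 0 and were not called. Col4a5 read 8.57, 8.92 and 8.56 in controls and 8.38, 8.45 and 8.26 in mutants, all mutants below all controls (-0.32, SE 0.12, adjusted p = 0.137). Its other probe set gave -0.03 and overlapped between the groups (adjusted p over all probe sets = 0.897). Col4a6, whose annotated start lies 1342 bases from that of Col4a5, read 5.52, 5.48 and 5.42 against 5.58, 5.46 and 5.16 (-0.07, SE 0.12, adjusted p = 0.75). Col4a3, with 4.75, 4.58 and 4.26 against 4.26, 4.33 and 4.44, and Col4a4, with 6.45, 6.28 and 6.14 against 6.10, 6.08 and 6.31, overlapped between the groups (-0.18, adjusted p = 0.443, and -0.13, adjusted p = 0.538).

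**Figure D2:**
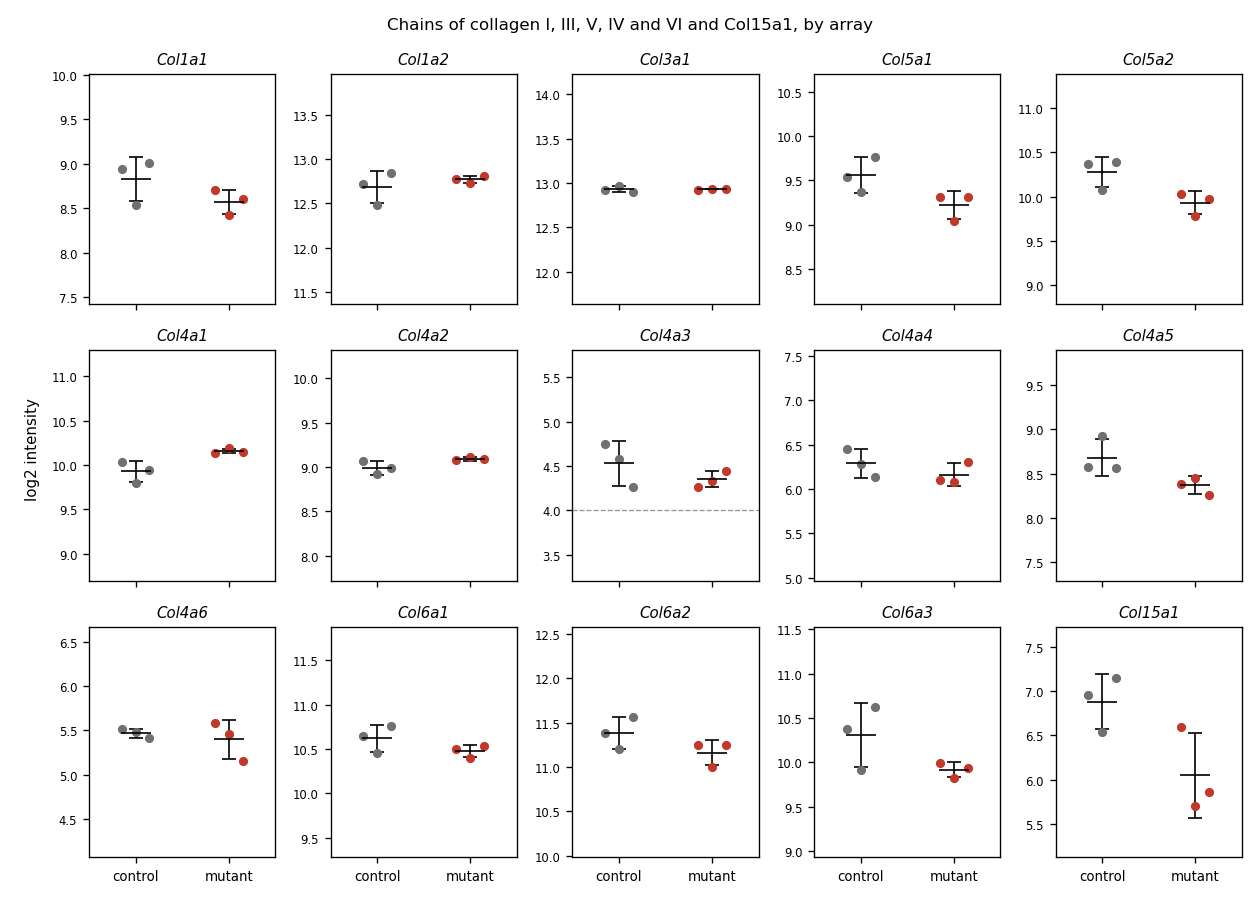
Log2 intensity (vertical axis, scale set for each panel) on each control array (grey) and mutant array (red) of 15 collagen genes that were not called, with group means and SDs in black and a dashed line at an intensity of 16 where it falls in the panel. Each panel shows only the gene's brightest probe set. Col3a1 lies between 12.90 and 12.96 on all arrays, Col4a1 is slightly above the controls and Col5a1, Col5a2 and Col4a5 slightly below on every mutant array, and Col15a1 overlaps through mutant array 1.

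Collagen VI forms beaded filaments around cells, from 1 Col6a1 chain, 1 Col6a2 chain and a longer chain that can be Col6a3 or a related one such as Col6a4. Of the 5 measured chains 1 fell, against 6.36% of all genes, and the median log2 fold change was -0.21. Col6a4 read 10.11, 9.65 and 10.13 on the control arrays and 8.79, 8.06 and 8.27 on the mutant arrays. The lowest control stands well above the highest mutant. The log2 fold change was -1.59 (SE 0.21, adjusted p = 0.00397), so that the level fell by 66.8%, and the log2 fold change ran from -1.80 to -1.44 with each array left out. The other probe set of Col6a4 is near the lowest signals and gave 0.02, and the mean of both gave -0.78 (adjusted p = 0.00525).

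The other collagen VI chains did not pass the test. Col6a1 read 10.65, 10.46 and 10.76 in controls and 10.50, 10.40 and 10.54 in mutants (-0.14, SE 0.10, adjusted p = 0.43). Col6a2 read 11.38, 11.20 and 11.56 against 11.25, 11.00 and 11.25 (-0.21, SE 0.12, adjusted p = 0.314). Col6a3 read 10.38, 9.92 and 10.63 against 9.99, 9.83 and 9.94 (-0.39, SE 0.17, adjusted p = 0.2). Control array 2 is the lowest control in all 3, and without it Col6a3 was called lower (-0.58, adjusted p = 0.0291). Within each array Col6a4 was lower relative to Col6a1 on every mutant array, the log2 ratio going from -0.66 (SD 0.14) to -2.11 (SD 0.34). Relative to Col6a2 and Col6a3 it moved by -1.38 and -1.20. Col6a5 lay between 1.42 and 1.74 on all arrays (-0.08, adjusted p = 0.671).

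The fibril-associated collagens sit on the surface of fibers and link them to other matrix. Of 9 measured genes 2 rose, Col12a1 and Col14a1, against 5.61% of all genes, and the median log2 fold change was 0.07. Both calls ended when certain single arrays were left out. Their log2 fold changes then stayed above 0, at 0.36 to 0.46 for Col14a1 and 0.60 to 0.95 for Col12a1 over all arrays left out in turn. Col14a1 read 7.80, 7.71 and 7.89 in controls and 8.19, 8.12 and 8.33 in mutants, all mutants above all controls (0.41, SE 0.09, 1.33-fold, adjusted p = 0.0272). The call ended without control array 1 (adjusted p = 0.0977) or 2 (0.0799) or mutant array 1 (0.0554) or 3 (0.0798). A second probe set gave 0.46 and was called, and the dimmest gave 0.13.

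Col12a1 read 4.46, 4.33 and 4.44 in controls and 4.89, 5.13 and 5.58 in mutants, with a log2 fold change of 0.79 (SE 0.17, 1.73-fold, adjusted p = 0.0227). It was lost without control array 1 (adjusted p = 0.0746), 2 (0.0683) or 3 (0.0614) or mutant array 2 (0.0703). Its other 3 probe sets, all dimmer, gave -0.07, -0.10 and -0.16, and the mean of the probe sets gave 0.12 (adjusted p = 0.371). Col16a1 was above the controls on every mutant array without passing the test (0.22, adjusted p = 0.197). Col9a1, Col9a2, Col9a3, Col19a1, Col20a1 and Col22a1 had log2 fold changes of -0.08 to 0.09, although the dimmest probe set of Col22a1 was called higher over all probe sets (0.62, adjusted p = 0.0138).

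Col8a1 and Col8a2 form the short-chain network collagen VIII, known from the matrix under endothelium and around smooth muscle. Col8a1 read 3.63, 3.95 and 3.98 in controls and 4.72, 5.61 and 5.67 in mutants. As with Col11a1, the controls lay just below 16 and the mutants above it. It rose 2.79-fold (1.48, SE 0.25, adjusted p = 0.0102). A second probe set gave 1.12 and was called, and the dimmest, near the lowest signals, gave -0.03, for a mean of 0.86 (adjusted p = 0.016). Col8a2 read 4.51, 5.02 and 4.21 against 4.79, 5.10 and 4.73 and overlapped between the groups (0.29, SE 0.20, adjusted p = 0.429), so the ratio of Col8a1 to Col8a2 moved by 1.19. Col10a1, the network collagen of growing cartilage, lay between 1.73 and 2.06 (0.08, adjusted p = 0.684).

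The multiplexins, Col18a1 and Col15a1, are collagens of the basement membrane zone that carry sugar chains and hold a fragment at their end, endostatin in Col18a1, that restrains vessel growth. Of the pair only Col18a1 was called. Col18a1 read 8.53, 8.31 and 8.46 in controls and 9.27, 9.30 and 9.42 in mutants, with a gap between the groups far wider than the spread within either. It rose 1.86-fold (0.90, SE 0.09, adjusted p = 0.00142), its other probe set gave 0.74, and its call held in every alternative tried, all 18 of them. Col15a1 read 6.95, 6.54 and 7.15 in controls and 6.59, 5.70 and 5.86 in mutants, where mutant array 1 falls among the controls (-0.83, SE 0.25, adjusted p = 0.0743). Without that array it was called lower (-1.10, adjusted p = 0.0124). The log2 ratio of Col18a1 to Col15a1 was 1.58, 1.77 and 1.31 in controls and 2.68, 3.60 and 3.56 in mutants.

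Transmembrane collagens span the cell membrane and take part in adhesion. Of 4 measured genes, Col13a1 and Col23a1 rose, against 5.61% of all genes, and the median log2 fold change was 0.68. Col13a1 read 4.45, 4.82 and 4.46 in the controls and 6.06, 6.34 and 6.11 in the mutants on its only probe set. It rose 3.02-fold (1.60, SE 0.13, adjusted p = 0.000577) and kept its call under every alternative but the methods' t-test (adjusted p = 0.0509). Col23a1 read 3.88, 4.31 and 4.41 against 5.33, 5.05 and 5.0, a rise of 1.9-fold (0.92, SE 0.16, adjusted p = 0.0106) that its other 2 probe sets, at 1.08 and 0.84, also passed. Col17a1, the hemidesmosome collagen of epithelia, stayed below 16 on all arrays and overlapped between the groups (0.44, SE 0.16, adjusted p = 0.134). Col25a1, also below 16 throughout, showed a log2 fold change of -0.12 (adjusted p = 0.716).

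Col7a1 forms the anchoring fibrils that fasten an epithelial basement membrane to the stroma beneath. It had the greatest log2 fold change of the 42 collagens. Its only probe set, read 7.06, 6.18 and 6.82 in the controls and 7.90, 8.61 and 8.66 in the mutants. The controls spread more widely than for most collagens, with control array 2 lowest, and mutant array 1 lay nearest to them, but the groups did not overlap. It rose 3.25-fold (1.70, SE 0.27, adjusted p = 0.00851), with log2 fold changes of 1.45 to 1.95 when each array was left out. Col26a1, a collagen known from testis and ovary, read 3.01, 2.85 and 2.78 against 3.65, 3.71 and 4.03, mostly below 16 (0.92, SE 0.12, 1.89-fold, adjusted p = 0.00443), and its other probe set gave 0.13, for a mean of 0.52 (adjusted p = 0.00567).

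**Figure D3:**
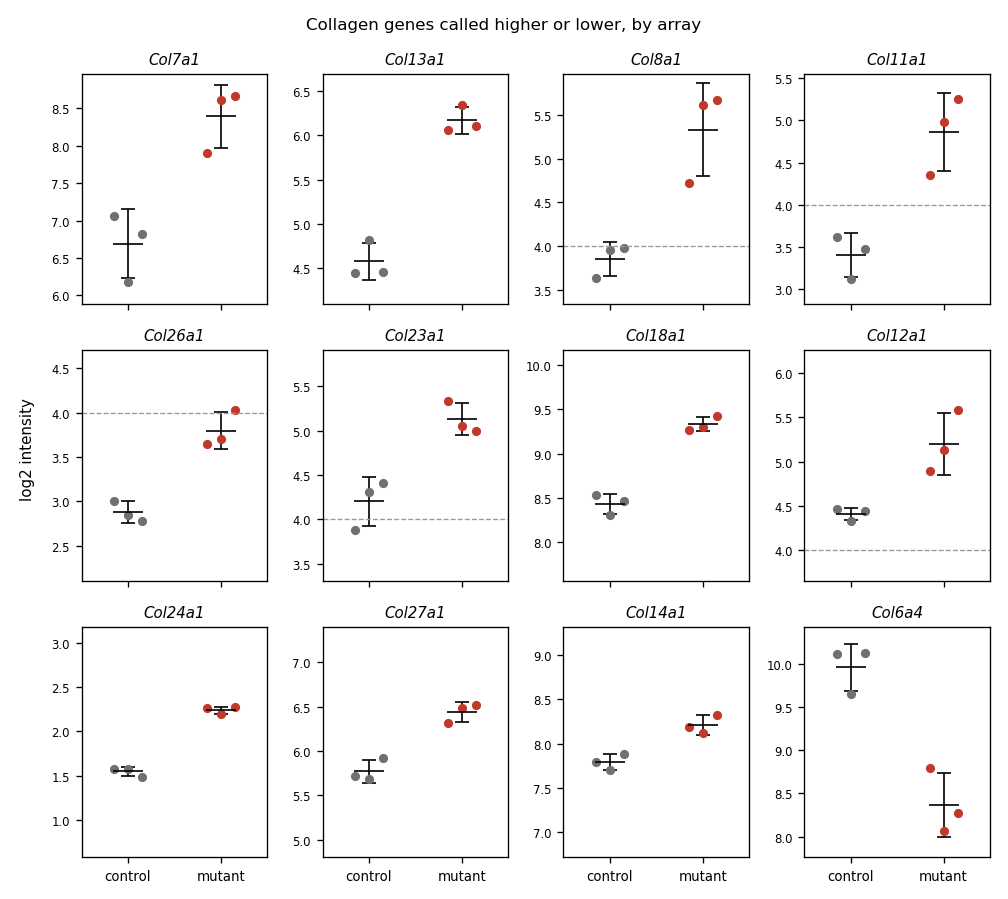
Log2 intensity (vertical axis, scale set for each panel) on each control array (grey) and mutant array (red) of the 12 called collagen genes, with group means and SDs in black and a dashed line at an intensity of 16 where it falls in the panel. In each panel the mutant points lie all above or, for Col6a4, all below the control points, and mutant array 1, the leftmost red point, is often the one nearest to the controls.

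Of the 82 collagen probe sets, 19 were called higher, 2 lower and 61 not called, against 3.49% higher and 3.41% lower of all 45037 probe sets. More than 1 probe set read 27 of the collagen genes. All probe sets were called for Col11a1, Col18a1, Col27a1 and Col23a1, and 2 of 3 for Col8a1 and Col14a1. Only 1 was called for Col26a1 and Col6a4, whose other probe set lay near the lowest signals, and 1 of 4 for Col12a1.

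**Figure D4:**
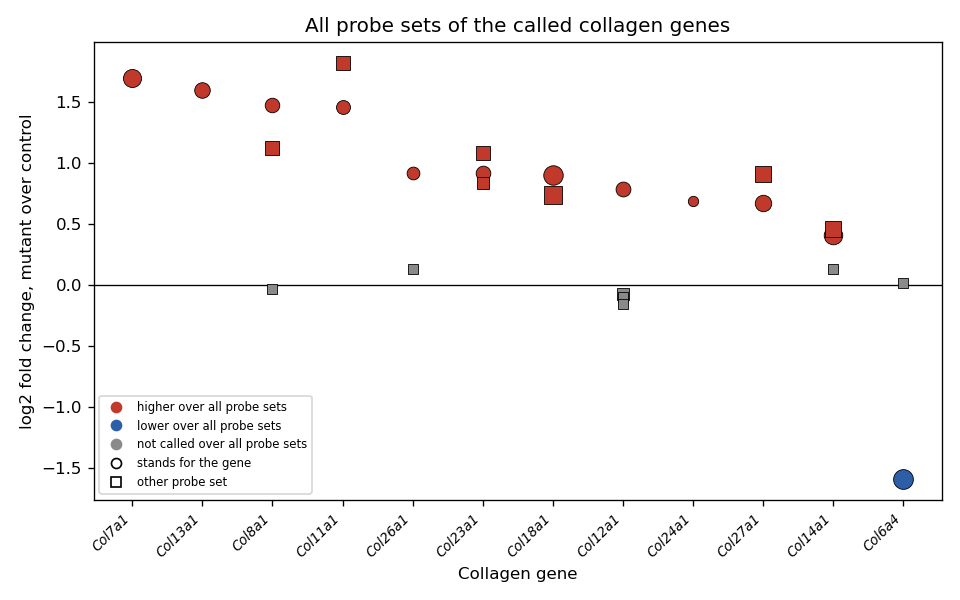
Log2 fold change (vertical axis, mutant over control) of every probe set of the 12 called collagen genes. Circles are the probe sets that stand for the gene, squares the others, colors give the call over all probe sets, and a larger mark means a higher mean log2 intensity. The other probe sets of Col11a1, Col18a1, Col23a1 and Col27a1 lie between 0.74 and 1.82, while those of Col12a1 lie at -0.07 to -0.16.

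Genes that act on collagen were read beside the chains. In the endoplasmic reticulum, where chains are hydroxylated and folded, 1 of 21 genes rose and 20 were not called (median log2 fold change 0.11). As limma called 5.61% of all genes higher and 6.36% lower, 1 of 21 is near the share of all genes. The gene that rose was P3h2, a prolyl 3-hydroxylase, at 4.71, 4.62 and 4.57 in controls and 4.88, 5.45 and 5.19 in mutants (0.54, SE 0.14, adjusted p = 0.048). Its call ended without control array 1, 2 or 3 or mutant array 2 or 3 (adjusted p of 0.112 to 0.123).

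Of 10 genes for trimming and cross-linking procollagen, 1 rose and 2 fell (median -0.11), against 5.61% and 6.36% of all genes. Lox, the oxidase that starts cross-links between chains, read 8.88, 8.65 and 8.72 in controls and 8.01, 7.24 and 7.99 in mutants. All mutants were below all controls (-1.0, SE 0.20, adjusted p = 0.0199), and the call ended without control array 1 (adjusted p = 0.0809) or 3 (0.0563) and over the mean of its probe sets (-0.52, adjusted p = 0.0591). The enhancers of procollagen C-proteinase moved in opposite directions. Pcolce2 read 7.79, 7.94 and 7.74 against 7.0, 6.54 and 6.82 (-1.04, SE 0.13, adjusted p = 0.00332), and Pcolce read 9.46, 9.70 and 9.48 against 9.94, 10.08 and 9.92 (0.44, SE 0.10, adjusted p = 0.0276, and 0.0512 to 0.112 without any array but control 2).

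Among 12 regulators of fiber assembly, 2 rose and 2 fell (median -0.09), against 5.61% and 6.36% of all genes. Tnxb, tenascin-X, read 7.78, 7.74 and 7.64 in controls and 6.59, 6.28 and 5.85 in mutants (-1.48, SE 0.18, adjusted p = 0.00276). Fmod, fibromodulin, a small proteoglycan on collagen fibers, went the other way, from 5.87, 5.79 and 6.10 to 6.96, 7.24 and 7.40 (1.28, SE 0.14, adjusted p = 0.00168). Both stood clear between the groups and kept their calls with each array left out. Fn1, fibronectin, fell (-0.79, SE 0.16, adjusted p = 0.018), but not without control array 1 or 3 or mutant array 2 or 3 (adjusted p of 0.0506 to 0.0746). Bgn, biglycan, rose (0.36, SE 0.09, adjusted p = 0.0385) and lost its call without any 1 of the 6 arrays (0.0526 to 0.107).

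Of 9 collagen receptors, limma called 0 (2 higher and 1 lower at an unadjusted p under 0.05, and 0 by the methods' t-test after adjustment; median -0.11). The smallest p-values were those of Itga1, the integrin α1 chain (0.46, SE 0.13, adjusted p = 0.0602), and Ddr1, a receptor kinase of epithelia (-0.47, SE 0.13, adjusted p = 0.0631). Both were called without control array 3 (adjusted p of 0.0259 and 0.0473).

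Of 14 genes of collagen breakdown or its inhibitors, Timp1 to Timp4 among them, 1 rose and 3 fell (median 0.14). The shares of all genes were 5.61% higher and 6.36% lower. Mmp3, stromelysin 1, read 3.93, 4.16 and 3.75 in controls and 5.03, 5.40 and 5.13 in mutants (1.24, SE 0.14, adjusted p = 0.00206), with the groups well apart. The genes that fell did so by less. Ctsk, cathepsin K, showed a log2 fold change of -0.56 (adjusted p = 0.0343), Timp2, an inhibitor of metalloproteinases, -0.49 (0.0315, and -0.30 over the mean of its probe sets), and Mmp14, a membrane-bound collagenase, -0.48 (0.034). Ctsk lost its call without control array 1 or 3 or mutant array 2 or 3 (adjusted p of 0.0736 to 0.127), and Timp2 (0.0713 to 0.104) and Mmp14 (0.053 to 0.127) without any array but mutant 1.

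Of 18 partners of collagen IV in the basement membrane, 1 rose and 4 fell (median -0.24), against 5.61% and 6.36% of all genes. Lama3 and Lamb3, chains of the epithelial laminin-332 to which Col7a1 anchoring fibrils attach, fell. Lama3 read 6.27, 6.29 and 5.95 in controls and 4.95, 4.86 and 5.08 in mutants (-1.21, SE 0.12, adjusted p = 0.00111), and Lamb3 read 5.11, 5.22 and 4.87 against 4.34, 4.24 and 4.46 (-0.72, SE 0.11, adjusted p = 0.00814). Both calls held with each array left out, and in both genes the groups were clearly apart, though the mean of the probe sets of Lama3 gave -0.55 (adjusted p = 0.00893). Smoc1, a matricellular protein, fell (-1.17, SE 0.21, adjusted p = 0.0141), except without control array 3 (0.0501) or mutant array 2 (0.0606). Pxdn, the peroxidase that cross-links collagen IV, fell (-0.52, SE 0.13, adjusted p = 0.0408), except without control array 1 or 3 or mutant array 2 or 3 (0.0955 to 0.14). Lamc3, named here after its value was seen, rose (0.48, adjusted p = 0.0111, and 0.0549 without control array 1) but lay below 16 on every array. In these 6 lists the methods' t-test called 0 genes after adjustment, so the calls above, from P3h2 to Lamc3, rest on limma (adjusted p by the t-test 0.0514 for Lama3, 0.0586 for Fmod, 0.0619 for Mmp3, 0.0681 for Pcolce2, 0.071 for Tnxb and 0.0816 for Lamb3).

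**Figure D5:**
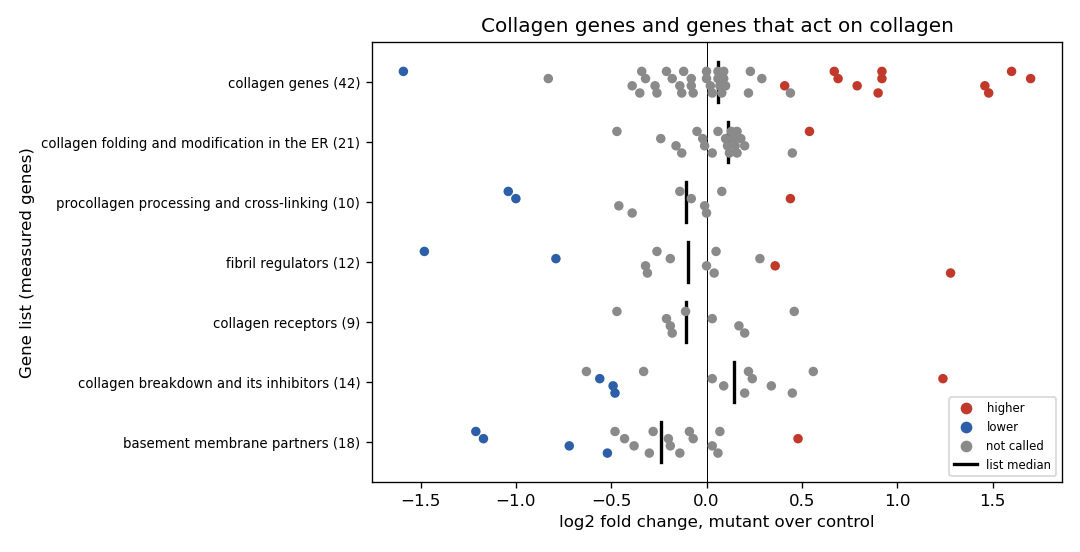
Log2 fold change (horizontal axis, mutant over control) of each measured gene in the collagen genes and 6 lists of genes that act on collagen, with the number measured in parentheses. Red is called higher, blue lower and grey not called, and black bars are list medians, which lie between -0.24 for the basement membrane partners and 0.14 for breakdown genes with their inhibitors.

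Markers of cell types that a uterus holds moved with the groups in part. Of 8 adipocyte markers 3 were called higher (Cidec, Retn and Lipe), and the summed intensity of the list was 204 to 1460 on control and 2508 to 3951 on mutant arrays. Retn lost its call without control array 1 or any 1 mutant array (limma adjusted p of 0.0664 to 0.146). Lipe lost its call over the mean of its probe sets (0.25, adjusted p = 0.172). Of 10 macrophage markers 5 were called higher, with sums of 1324 to 1408 against 1671 to 1758. Of 10 stromal markers 1 was called higher (Hand2, 1.49), with sums of 12516 to 12863 against 10784 to 12129. Of 10 epithelial markers 1 was called higher (Foxa2, 1.54) and 1 lower (Krt18, -0.80), with sums of 4975 to 5882 against 3769 to 5278. Of 10 endothelial markers 1 was called lower (Tek, -0.85), with sums of 871 to 963 against 798 to 979. The call of Tek ended without control array 1 or 2 or mutant array 2 or 3 (limma adjusted p of 0.0676 to 0.093). For comparison, limma called 5.61% of all genes higher and 6.36% lower. After adjustment the methods' t-test called 1 macrophage marker higher and 0 markers of the other lists in this paragraph. The part of these cell types in the collagen results was not tested.

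By limma 0 markers were called of 10 for smooth muscle (1 higher and 2 lower at an unadjusted p under 0.05), 7 for pericytes (2 and 1), 5 for mesothelium (0 and 1) and 3 for Schwann cells (0 and 0), and of 9 cell cycle genes (0 and 0). The methods' t-test gave 0 for these lists after adjustment. The cell cycle genes summed to 192 to 1437 on control and 901 to 1490 on mutant arrays, lowest on control array 2. That array was also the lowest control for most collagens, and the calls of the collagens other than Col12a1 and Col14a1 did not need it.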

How the data were processed

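Each array was assigned to control or mutant by its sample label, and the labels give no batch or scan date. The authors deposited linear intensities, 1 for each probe set on each array, and RMA is named, without a version, in the submitters' processing notes. RMA corrects background, normalizes between arrays and summarizes the probes of a set. The base 2 logarithm was taken of these values after a floor of 1, which changed none. Of 45037 probe sets, 34945 carry 1 gene symbol in GEO's platform annotation, 932 carry several and 9160 none, and 0 symbols needed an update through RefSeq. Each of the 18193 genes was read by its brightest probe set, by the mean of the 6 arrays.

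Mutant was compared with control in R 4.3.3 with limma 3.58.1, using lmFit and eBayes without covariates. P-values were adjusted by Benjamini-Hochberg over all genes, with a threshold of 0.05, and again over all probe sets. All 42 collagens are accounted for. Values by array are given for every called collagen, for the chains of collagens I, III, IV, V and VI and for chains whose partner was called, and the rest are given by fold change or range. Other named genes are, of each list of genes that act on collagen up to 4 called members that changed most, or the list's 2 members of smallest p where none was called. The members, lists and tests were chosen with earlier results of these data known. The study's statistics section names Student's test, which was run on the same values as the methods' t-test. Promoter windows came from RefSeq on GRCm38.p6. The fit was tested on simulated data with 200 changed genes. Alternatives were other scalings between arrays, the mean of probe sets, leaving out the lowest 40% of genes, an intensity trend, a floor of 16, weights for arrays, a replicate block, the methods' t-test, a fold above 1.5 with an unadjusted p under 0.05, and leaving out each array. A floor of 16 without genes at the floor, and leaving out control array 2 with mutant array 1, were added after the data were seen. Any 2 arrays shared identical values at no more than 2.11% of probe sets.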

Additional observations from a re-analysis of the deposited data

How the results depend on the processing

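Of the 12 called collagens, the same 12 were called with arrays centred on their medians, quantile normalization, an intensity trend, array weights and the replicate block. With a floor of 16, 2 collagen genes were called higher and 0 lower, 0 of them fibrillar and 2 of other types, and 0 collagen probe sets were called. Of all genes, 283 were called higher and 243 lower at this floor. Many genes then sit at the floor on all arrays with no spread, which changes the variance that limma shares between genes. Leaving such genes out gave 9 collagens higher and 1 lower, against 922 and 1160 of the 10789 genes then tested. The methods' t-test with Benjamini-Hochberg adjustment put 2 higher (Col18a1 and Col24a1) and 0 lower, 1 fibrillar and 1 of another type, with 0 probe sets. Before adjustment it put 12 collagens higher and 1 lower, against 1924 and 2224 of all genes, and after it 105 and 39 of all genes against 1021 and 1157 by limma. The collagens called lower numbered 3 with array weights (Col15a1 and Col5a2 added), 2 with a fold above 1.5 and an unadjusted p under 0.05, and 3 without control array 2 and mutant array 1. Of all genes, 1566, 757 and 773 were called lower in these settings. With each array left out, 9 to 10 collagens were called higher and 1 to 2 lower, against 480 to 971 and 372 to 1139 of all genes. No collagen called by limma took the opposite sign in any alternative, but Col24a1 stood at 0.00 with a floor of 16. The filter on the lowest 40% of genes left 29 collagens and did not test Col24a1 and Col26a1. It gave 9 collagens higher and 1 lower, against 931 and 1174 of the 10916 genes tested.

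With the replicate number as a block, 12 collagens were called higher and 2 lower, Col17a1 and Col15a1 being added. Of all genes, 966 were called higher and 1085 lower with this block. Whether the numbers pair the samples is not known. Deviations from the group means correlated by 0.01, 0.21 and 0.16 between arrays of the same number, and control array 1 correlated best with mutant array 3 (0.11). Such deviations cancel within a group of 3 arrays, so these correlations cannot settle the question. The 3 arrays a group limit the precision, and 12 collagens lay below an intensity of 16 on every array, where a change may be understated.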
